A study of Mus musculus with 10 samples.

Results

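The genes described here are Lpl, Fabp4, Fabp5, Pltp and Plpp3, 5 mouse genes whose products release, bind, transfer or dephosphorylate lipids. They were taken as the features of a spotted cDNA array that carry 1 of these symbols alone, which gave 5 of 9596 features, 1 for each gene. Their Entrez identifiers are 16956 (Lpl, chromosome 8), 11770 (Fabp4, chromosome 3), 16592 (Fabp5, chromosome 3), 18830 (Pltp, chromosome 2) and 67916 (Plpp3, chromosome 4). The set was drawn up with the differences between macrophage populations in view, so those differences are described below without a test. The responses to lipopolysaccharide (LPS), measured on other arrays, were tested. Whether those arrays used the same RNA is not stated, so these tests may not be independent of the choice. The difference between the 2 responses is also, for like cells, the change with LPS in the difference between the populations.

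Adherent cells of 2 kinds were compared, tumour-associated macrophages (TAM) and cells of the peritoneal exudate (PEC), from mice labelled C57/6N black and aged 8 weeks. The cells were kept in culture without LPS or with LPS, a bacterial cell wall component that activates macrophages, at 100 ng/mL for 4 hours. No genetic change is named in the labels, nor is the kind of tumour or an agent that elicited the exudate. On the arrays that hold TAM and PEC together, both cell kinds are described as taken 3 weeks after tumour implantation. The labels of the PEC arrays with and without LPS name no tumour.

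Each of the 10 arrays carried total RNA of 2 conditions, 1 in each channel. Untreated TAM were set against untreated PEC on 4 arrays (TAM-b, TAM-3, TAM-8 and TAM-2R), and LPS-treated TAM against LPS-treated PEC on 2 (TAM1 and TAM7). PEC with LPS were set against PEC on 2 arrays (PEC1 and PEC2), and TAM with LPS against TAM on 2 (TAM-trial and TAM-16). Nothing in the labels says how many animals stand behind an array, whether RNA was pooled, or whether the same RNA was used again. The spread between arrays may therefore be technical. The values are log2 ratios, with TAM over PEC or LPS over no LPS. They hold no level of a gene in 1 cell population, so whether a marker was present cannot be read from them, and levels of different genes were not compared.

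A few facts of the whole series bear on these genes. Array medians ran from -0.199 to 0.022, and the scaled median absolute deviation of an array from 0.688 to 1.165. The ratio was read as channel 2 over channel 1. On this reading, 31 and 33 of 35 measured LPS-induced genes were above 0 on PEC1 and PEC2, so the direction given here is likely and not stated by the sources. On TAM1 and TAM-2R the labels exchange the channels, so the sign of these 2 arrays was turned. Once turned, TAM-2R correlated with the 3 other arrays of its comparison at r between 0.036 and 0.101 over all genes, and TAM1 with TAM7 at r = 0.293. Weak agreement was not particular to the turned arrays. Unturned TAM-3 correlated with TAM-b at 0.080 and with TAM-8 at 0.054, and TAM-b with TAM-8 at 0.329. For TAM-trial with TAM-16 r was 0.096, and for PEC1 with PEC2 0.269. The 5 genes were chosen with TAM-2R and TAM1 turned, so their signs there say nothing about the turning. The series used 3 array prints (PEC1 on v1p1, TAM-8, TAM7 and TAM-trial on v9p2, the remaining 6 on v3p6). The v9p2 arrays, each of another comparison, correlated at 0.568 (TAM-8 with TAM7), 0.520 (TAM-8 with TAM-trial) and 0.433 (TAM7 with TAM-trial). A feature's place within runs of 96 feature numbers accounted for between 4.39% and 49.1% of an array's variance.

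Macrophages take up lipid both as whole lipoproteins and as fatty acids freed outside the cell. Lipoprotein lipase, the product of Lpl, is secreted and cleaves triglyceride in lipoproteins. The fatty acid binding proteins encoded by Fabp4 and Fabp5 carry fatty acids inside the cell, and Fabp4 is also a classical adipocyte gene. Phospholipid transfer protein (Pltp) moves phospholipid between lipoproteins, and lipid phosphate phosphatase 3 (Plpp3) removes phosphate from lipids such as lysophosphatidic acid at the cell surface. Several of these genes are textbook targets of the lipid-sensing nuclear receptors PPARgamma and LXR.

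Promoter sequence was at hand for Pltp and Plpp3, 2 of the 5 genes. They are shown because the tables at hand held these 2, and not for their values. The 250 bases before the start site are given 5′ to 3′ on the gene's strand, from RefSeq on GRCm38.p6. Capitals mark matches to the motifs searched.
Pltp, chr2:164857709-164857958, minus strand: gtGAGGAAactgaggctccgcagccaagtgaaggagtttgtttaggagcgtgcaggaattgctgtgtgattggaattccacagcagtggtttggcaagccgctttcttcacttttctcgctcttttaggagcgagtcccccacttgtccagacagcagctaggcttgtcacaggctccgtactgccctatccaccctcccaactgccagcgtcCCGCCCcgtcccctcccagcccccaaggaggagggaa
Plpp3, chr4:105157097-105157346, plus strand: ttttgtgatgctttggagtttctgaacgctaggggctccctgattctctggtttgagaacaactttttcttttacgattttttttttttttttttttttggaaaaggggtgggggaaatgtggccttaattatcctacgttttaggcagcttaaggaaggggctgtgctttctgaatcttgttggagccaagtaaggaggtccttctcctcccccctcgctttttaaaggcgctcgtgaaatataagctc
The Pltp stretch held 57.6% G or C and that of Plpp3 42.4%, against a median of 52.4% over 32851 promoters. The letters of 4 motifs were searched on both strands. The core of nuclear receptor sites, spelled AGGTCA, lay in 14% of all promoters of this length. The box bound by the TATA-binding protein, spelled TATAAA, lay in 12.4% of them. The GC box, spelled GGGCGG, which the factor Sp1 is known to bind, lay in 32.7%. The core bound by ETS factors such as PU.1, spelled GAGGAA, lay in 23.3%. The Pltp stretch held a GC box on the opposite strand, 37 to 32 bases before the start, and an ETS core on the same strand, 248 to 243 bases before it. No match to these letters lay in the Plpp3 window.

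In untreated cells, Lpl, Fabp4, Fabp5 and Pltp were lower in TAM than in PEC on every array, by 14.4-fold, 10.1-fold, 7.64-fold and 8.27-fold on the mean. Plpp3, the phosphatase, was 1.58-fold lower on the mean and not on every array. These values chose the members and carry no test. Of the 5 genes, 4 had an adjusted p under 0.05 in the fit over all genes (limma, Benjamini-Hochberg adjustment), where 0.337% of 8905 genes and features were called lower and 0.124% higher. That count fell to 2 or 3 when any 1 of the 10 arrays was left out: it was 3 without TAM-3 and 2 without each of TAM-b, TAM-2R, TAM-8, TAM1, TAM7, TAM-trial, TAM-16, PEC1 and PEC2. With TAM-2R and TAM1 left as deposited it was 0. Below 0 on all 4 arrays were 4 of the 5 genes, beside 10.8% of all genes. In these bulk samples, fewer cells of a type and less RNA per cell cannot be told apart.

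The lipase gene Lpl stood at -4.33 on TAM-b, -2.31 on TAM-2R, -4.51 on TAM-3 and -4.25 on TAM-8. The turned array TAM-2R stands above the others, which lie close together. The mean log2 ratio was -3.85 ± 1.03 (SD, n = 4), the fifth lowest of the 8905 genes and features.

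The binding protein genes were more scattered. Fabp4 stood at -2.38 on TAM-b, -4.75 on TAM-2R, -4.61 on TAM-3 and -1.63 on TAM-8, with a mean of -3.34 ± 1.57 (SD, n = 4). Fabp5 stood at -3.70 on TAM-b, -2.66 on TAM-2R, -1.10 on TAM-3 and -4.27 on TAM-8, with a mean of -2.93 ± 1.39 (SD, n = 4). The arrays with the lower Fabp4 values, TAM-2R and TAM-3, were those with the higher Fabp5 values. Within print v3p6 the mean of Fabp4 was -3.91, and the single v9p2 array gave -1.63. For Fabp5 the v3p6 mean was -2.49 and the v9p2 value -4.27.

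The transfer protein gene Pltp was the most even member, at -3.47 on TAM-b, -3.33 on TAM-2R, -2.39 on TAM-3 and -3.01 on TAM-8. Its mean was -3.05 ± 0.48 (SD, n = 4), with -3.06 within print v3p6 and -3.01 on the v9p2 array. Plpp3 stood at -0.72 on TAM-b, -0.76 on TAM-2R, -1.40 on TAM-3 and 0.26 on TAM-8, with a mean of -0.66 ± 0.69 (SD, n = 4). The mean of Plpp3 was -0.96 on v3p6, and the single v9p2 array, TAM-8, gave 0.26. Print and array cannot be told apart here. By mean log2 ratio the order from the lowest was Lpl, Fabp4, Pltp, Fabp5 and Plpp3. The first 4 lay within 1 SD of Fabp4 of each other, and Plpp3 lay above them.

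**Figure D1:**
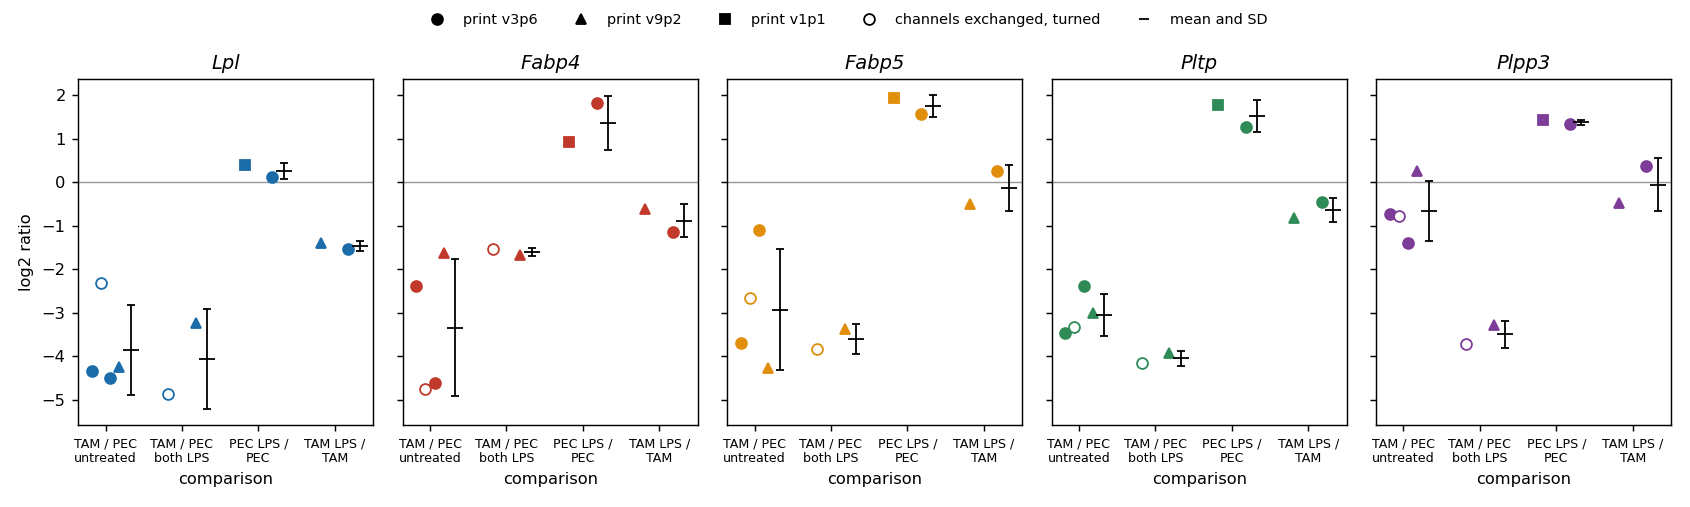
Log2 ratio (vertical axis) of each gene on each of the 10 arrays, grouped by comparison along the horizontal axis; shapes give the array print, open symbols the 2 turned arrays, and black marks the mean and SD. All 5 genes lie above 0 on both arrays of PEC with LPS over PEC, and below 0 on both arrays of TAM over PEC with LPS.

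With LPS on both sides, TAM were again lower than PEC for all 5 genes on both arrays. Plpp3, 1.58-fold lower without LPS, was 11.3-fold lower here, while Fabp4 was only 3.04-fold lower. Lpl, Fabp5 and Pltp were 16.7-fold, 12.2-fold and 16.5-fold lower. This comparison also entered the choice of members, so it carries no test either. Called lower were 2 of the 5 genes, Pltp and Plpp3, where 0.0561% of all genes were called lower and 0.0112% higher. Without TAM1 or without TAM7, 0 of the 5 were called, without PEC1, PEC2, TAM-b, TAM-trial or TAM-16 the count was 1, and without TAM-2R or TAM-3 it was 3. Below 0 on both arrays were 5 of 5 genes, beside 28.2% of all genes.

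Lpl stood at -4.88 on TAM1 and -3.25 on TAM7, a mean of -4.06 ± 1.15 (SD, n = 2). Fabp4 gave -1.54 and -1.67 on the same arrays (mean -1.60 ± 0.09, SD, n = 2), and Fabp5 gave -3.84 and -3.37 (mean -3.60 ± 0.34). Pltp was at -4.17 and -3.92 (mean -4.05 ± 0.17), and Plpp3 at -3.72 and -3.28 (mean -3.50 ± 0.32). On each array Fabp4 lay above the other 4 genes. The turned array TAM1 gave the lower value for Lpl, Fabp5, Pltp and Plpp3. Left as deposited, TAM1 would largely cancel TAM7 in the mean, so this comparison rests on the channel labels of TAM1. Of the 5 genes, Fabp4 was 369th from the lowest among all genes and features, against places from 10 to 29 for the other 4.

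In PEC, all 5 genes were above 0 with LPS on both arrays, but none passed the test. The largest mean ratio was that of Fabp5, and the smallest was that of Lpl. All genes above 0 on both arrays made up 31.4% of the total, beside 5 of 5 here. By limma with Benjamini-Hochberg adjustment, 0.0112% of all genes were called higher and 0% lower, and 0 of the 5 genes were called either way. At an unadjusted p under 0.05 the fit listed 725 of all genes, among them Fabp5, Pltp and Plpp3. Both PEC arrays carry LPS in the same channel. With a dye term for each gene, taken from the exchanged arrays of the other comparisons, the means were 0.55 for Lpl, 0.84 for Fabp4, 1.77 for Fabp5, 1.36 for Pltp and 1.25 for Plpp3. Under the loop fit of all 4 conditions, Fabp4 was at 0.23 and Lpl at -0.17.

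Lpl stood at 0.39 on PEC1 and 0.13 on PEC2, with a mean of 0.26 (95% interval -1.07 to 1.59, adjusted p = 0.977, limma). Fabp4 stood at 0.94 and 1.82, with a mean of 1.38 (-0.25 to 3.00, adjusted p = 0.705, limma). Fabp5 stood at 1.93 and 1.57, with a mean of 1.75 (0.27 to 3.24, adjusted p = 0.498, limma). The binding proteins thus lay higher than the lipase on both arrays, and their intervals overlap that of the lipase.

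Pltp stood at 1.79 and 1.26, with a mean of 1.53 (0.60 to 2.45, adjusted p = 0.407, limma). Plpp3 stood at 1.42 and 1.34, with a mean of 1.38 (0.34 to 2.43, adjusted p = 0.452, limma). Among all genes and features, 66.2% had a lower mean than Lpl, and between 94.0% and 96.8% a lower mean than each of the other 4. Of 12 measured macrophage markers, 0 were called (3 at an unadjusted p under 0.05, limma). The mean of 11 of them was above 0, with medians of 1.43 on PEC1 and 1.23 on PEC2, and their part in the result was not tested.

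In TAM, LPS gave no value above 0 for Lpl, Fabp4 or Pltp, and mixed signs for Fabp5 and Plpp3. None passed the test. Below 0 on both arrays were 3 of 5 genes, beside 33.7% of all genes. By limma, 0% of all genes were called higher and 0% lower. The fit listed 497 genes at an unadjusted p under 0.05, of which Lpl was 1. TAM-trial and TAM-16 carry LPS in the same channel. With the dye term for each gene, the means were -1.18 for Lpl, -1.42 for Fabp4, -0.11 for Fabp5, -0.80 for Pltp and -0.19 for Plpp3.

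Lpl stood at -1.39 on TAM-trial and -1.54 on TAM-16, the closest pair among the 5 genes. Its mean was -1.47 (95% interval -2.80 to -0.14, adjusted p = 0.827, limma). Fabp4 stood at -0.62 and -1.15 (mean -0.89, -2.51 to 0.74, adjusted p = 0.890, limma). Fabp5 stood at -0.50 and 0.25 (mean -0.13, -1.61 to 1.36, adjusted p = 0.985, limma), so its 2 arrays differ in sign.

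Pltp stood at -0.83 and -0.44 (mean -0.64, -1.56 to 0.29, adjusted p = 0.855, limma). Plpp3 stood at -0.48 and 0.38 (mean -0.05, -1.10 to 0.99, adjusted p = 0.993, limma). Intervals of this width leave room for a response of more than 1 log2 unit in either direction for Fabp5, and of 1.10 units down or 0.99 up for Plpp3. The arrays also differed in their macrophage markers, with a median of -1.78 on TAM-trial (12 of 12 below 0) and 0.17 on TAM-16. The part of this in the values was not tested.

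The response of TAM to LPS was below that of PEC for each of the 5 genes, by between 1.44 and 2.26 log2 units, and no difference passed the test. The difference of the responses was -1.73 for Lpl (95% interval -3.61 to 0.16, adjusted p = 0.752, limma), -2.26 for Fabp4 (-4.56 to 0.03, adjusted p = 0.726, limma) and -1.88 for Fabp5 (-3.98 to 0.22, adjusted p = 0.765, limma). It was -2.16 for Pltp (-3.47 to -0.86, adjusted p = 0.719, limma) and -1.44 for Plpp3 (-2.92 to 0.04, adjusted p = 0.735, limma). The interval of Pltp is the one that does not reach 0 before adjustment (unadjusted p = 0.00424, limma). Over all genes 0% were called higher and 0% lower by limma, and 612 had an unadjusted p under 0.05. The macrophage markers had a median difference of -1.91, with 12 of 12 below 0, beside -0.11 for all genes. The 2 TAM arrays behind it were unlike, with macrophage medians of -1.78 on TAM-trial and 0.17 on TAM-16. The part of these markers in the result was not tested.

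**Figure D2:**
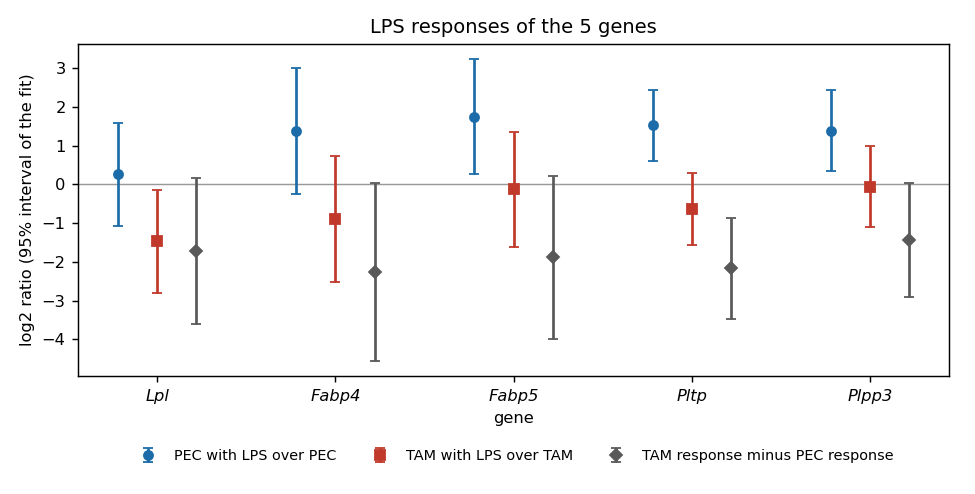
Fitted log2 ratios (vertical axis) with 95% intervals for each gene (horizontal axis): PEC with LPS over PEC in blue, TAM with LPS over TAM in red, and the TAM response minus the PEC response in grey (limma, 10 arrays). The grey points lie between -2.26 and -1.44, and only the interval of Pltp ends below 0.

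If the PEC of all arrays are alike, the same quantity can be had from the other arrays. It is then the TAM over PEC ratio with LPS minus that without it. The labels leave this open, since those of PEC1 and PEC2 name no tumour. The 4 groups of arrays do not overlap, but this route uses the comparisons that chose the members and is given as a description. It gave -2.84 for Plpp3, -0.998 for Pltp, -0.67 for Fabp5, -0.21 for Lpl and 1.74 for Fabp4. Plpp3, Pltp and Fabp5 were below 0 by both routes and Lpl was close to 0 by the second. Fabp4 was opposite in sign, at -2.26 by the LPS responses and 1.74 by the differences between the cell populations. Over the untreated arrays Fabp4 ran from -4.75 to -1.63, and its values on TAM-b and TAM-8 were the ones nearer to the -1.60 seen with LPS.

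**Figure D3:**
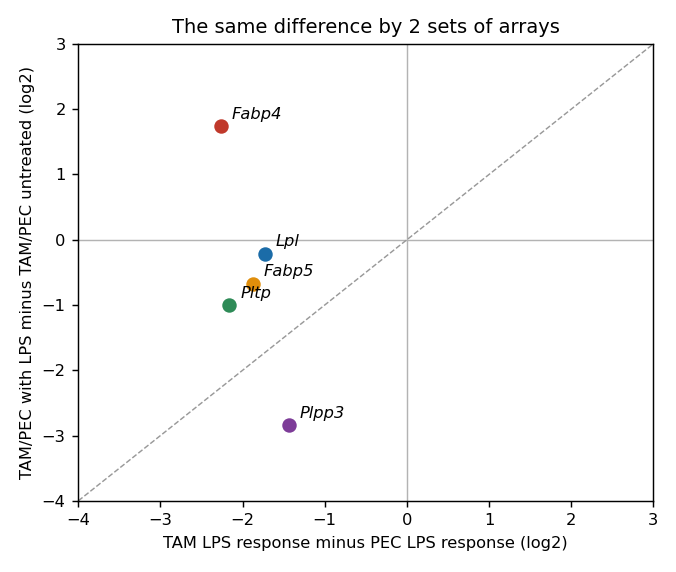
The TAM response to LPS minus the PEC response (horizontal axis, log2) against the TAM over PEC ratio with LPS minus that without (vertical axis, log2), 1 point for each gene; the dashed line marks equality. Fabp4 lies at -2.26 and 1.74, above the line, and Plpp3 at -1.44 and -2.84, below it. The axes give the same quantity only if the PEC of all arrays are alike.

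Over the 10 arrays the closest pair was Fabp5 and Pltp, with Pearson's r = 0.957. Lpl followed Pltp at 0.900 and Fabp5 at 0.877, and Plpp3 followed Pltp at 0.817. Fabp4 was the loosest member, at 0.719 with Pltp, 0.680 with Lpl, 0.583 with Fabp5 and 0.473 with Plpp3. These values describe 10 arrays that share 4 comparisons, channels and prints, and the differences between comparisons make up much of each.

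The named genes whose ratios were most like those of Lpl over the 10 arrays were Tbxas1 (thromboxane synthase, r = 0.955), Tmbim1 (0.954) and the chemokine gene Ccl6 (0.953). For Fabp4 they were the adhesion molecule gene Icam2 (0.957), Cd24a (0.914) and Bhlhe40 (0.905). For Fabp5 they were Stom (0.971), Clic4 (0.970) and Mdm2 (0.964). For Pltp they were Mdm2 (0.988), the urokinase receptor gene Plaur (0.982) and the lysosomal protease gene Ctsd (0.974). For Plpp3 they were Hnrnpd (0.962), the endothelin gene Edn1 (0.957) and the protease inhibitor gene Timp1 (0.928). Plaur, like Pltp, was at -2.36 in untreated TAM over PEC and -4.15 with LPS, and at 2.10 in PEC with LPS. Edn1, like Plpp3, was nearer to 0 without LPS (-0.29) than with it (-3.02).

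Fabp4 and Fabp5 lie near each other on chromosome 3, with Pmp2 and Fabp9 between them in the order Fabp5, Pmp2, Fabp9 and Fabp4. Fabp9 was measured and stood at -0.24 ± 0.84 (SD, n = 4) in untreated TAM over PEC, with an adjusted p of 0.772 (limma). In PEC with LPS it stood at -0.86, below 0 on both arrays, where its neighbours Fabp4 and Fabp5 were above 0. Among the other family members, Fabp7 was at -2.06 ± 1.56 (SD, n = 4) in untreated TAM over PEC with an adjusted p of 0.150 (limma), and below 0 on 4 of 4 arrays. Fabp1 (0.33) and Fabp2 (-0.50) were not below 0 on every array. Fabp7 is a close relative of Fabp4 and Fabp5, and whether its spot also bound their RNA was not tested.

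The other genes of lipid handling did not follow the 5 as a group. In 9 lists of uptake, binding, lipolysis, transport, phosphatase, storage, oxidation, synthesis and regulator genes, 136 of 259 listed genes were measured besides the members. In untreated TAM over PEC, 0 rose and 0 fell by limma, where 0.124% of all genes and features were called higher and 0.337% lower. With so few called over all genes, 0 of 136 says little about the lipid genes. At an unadjusted p under 0.05 were 31 of the 136, beside 1274 of all 8905, which is the smaller share. No set test was run. The values of the lipid genes were split evenly, with 68 above and 68 below 0 and a median of -0.00, beside -0.02 for all genes. In the other comparisons 0 rose and 0 fell too, with 7 (PEC with LPS), 6 (TAM with LPS), 15 (TAM over PEC with LPS) and 12 (difference of responses) at an unadjusted p under 0.05. The counts over all 8905 were 725, 497, 801 and 612 in the same order. Medians of the lipid genes there were 0.03, -0.19, -0.01 and -0.22, beside -0.04, -0.13, 0.08 and -0.11 for all genes.

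Among 13 uptake receptor genes, the scavenger receptor gene Cd68 was at -1.74 in untreated TAM over PEC and -3.50 with LPS (adjusted p = 0.241 and 0.199, limma). The HDL receptor gene Scarb1 was at 0.73 without LPS, above 0 on 4 of 4 arrays, and Marco and Lrp1, receptors for modified lipoproteins and remnants, were at -1.76 and -1.70 with LPS. None of these passed the test. Among 10 lipases and phospholipases, where Lpl stands, the 2 phospholipase D family genes Pld3 and Pld4 pointed apart, at -1.25 and 1.41 without LPS and at -3.02 and 1.27 with it. The list median was 0.33 in both.

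Among 11 binding protein genes, the retinoic acid binding protein gene Crabp1 was at 1.98 without LPS (adjusted p = 0.145, limma) and above 0 on 4 of 4 arrays. Dbi, which binds acyl-CoA, was at -2.70 ± 0.04 (SD, n = 2) in TAM with LPS over TAM (adjusted p = 0.720, limma). Among 20 genes of lipoproteins, lipid transfer and efflux, Lbp, whose product is a relative of Pltp that binds LPS, was at -2.23 without LPS and -1.19 with it (adjusted p = 0.139 and 0.802, limma). In the same list Npc2 was at 1.496, Mttp at 1.35 and Apoa1 at -1.34 without LPS, and Psap at -2.37, Pitpna at -1.72 and Apoe at -1.21 with it.

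Among 12 genes of lipid phosphate phosphatases and lysophospholipid signalling, Plpp1, another phosphatase of the Plpp3 family, was at -0.85 without LPS and -1.02 with it. Sgpl1, which degrades sphingosine 1-phosphate, was at 1.55 ± 0.13 (SD, n = 2) in PEC with LPS (adjusted p = 0.427, limma) and -1.27 in TAM over PEC with LPS, the signs of Plpp3. Among 19 regulators, Rxrb (0.87), the partner of PPARgamma and LXR, and Cebpa (-0.96) were on opposite sides of 0 in untreated cells. The lipid droplet coat gene Plin2 was at -1.51 in TAM over PEC with LPS. No list was set against another by a test.

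**Figure D4:**
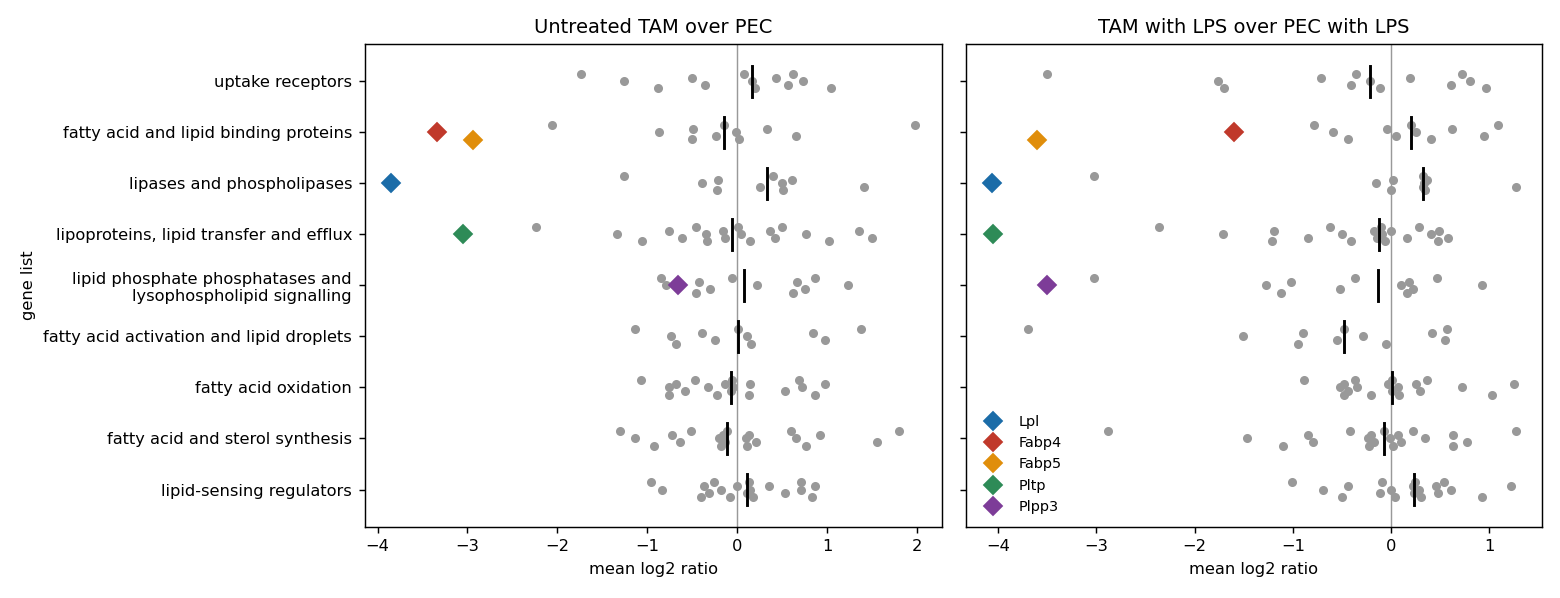
Mean log2 ratio (horizontal axis) of each measured gene of the 9 lipid lists (rows), untreated TAM over PEC on the left (4 arrays) and with LPS on the right (2 arrays); grey points are the other genes, black bars the list medians, coloured diamonds the 5 genes described. The diamonds of Lpl, Fabp4, Fabp5 and Pltp lie to the left of every grey point on the left. The 5 genes were chosen with these comparisons in view, so their place apart follows in part from that choice.

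Some of the 5 genes also mark other cells, Fabp4 and Lpl adipocytes, and Fabp4 and Plpp3 endothelium, so marker lists without the members were read on the same arrays. Of 6 measured adipocyte markers (12 listed), 0 were called in untreated TAM over PEC by limma, 2 had an unadjusted p under 0.05, and the median was -0.14, from -0.73 (Cidec) to 1.03 (Adipoq). Array medians ran from -1.17 on TAM-3 to 0.26 on TAM-2R, the 2 arrays on which Fabp4 was lowest. Of 14 endothelial markers (23 listed), 0 were called, with 2 at an unadjusted p under 0.05 and a median of 0.09, from -1.59 (Icam2) to 1.47 (Tie1). Icam2 was also in the list of peritoneal macrophage markers, so its value is not particular to endothelium.

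Of 13 measured peritoneal macrophage markers (20 listed), 10 were below 0 and 4 fell in untreated TAM over PEC: Saa3 at -6.61, Fcna at -5.23, Slpi at -4.31 and Cd5l at -3.83 (adjusted p = 0.000420, 0.000420, 0.0122 and 0.0352, limma). The marker lists were written with earlier results of these data known, so calls within them are descriptions and not independent tests. Saa3 was also among the LPS-induced genes used to read the direction. The median of the peritoneal macrophage list was -1.59, with array medians from -2.51 on TAM-3 to -0.93 on TAM-b. Lpl and Plpp3 were also lowest on TAM-3, at -4.51 and -1.40. Fabp4 was at -4.61 there, near its lowest value of -4.75 on TAM-2R. Fabp5 and Pltp were instead highest on TAM-3, at -1.10 and -2.39. How far the genes followed the marker medians was not tested. The 21 general macrophage markers, 12 of them measured, had a median of -0.53 and ran from Cd68 at -1.74 to Aif1 at 2.76. Of these 0 were called and 5 had an unadjusted p under 0.05 (limma), beside 1274 of all 8905 genes and features. Their array medians differed in sign, at -0.91 on TAM-b, 0.20 on TAM-2R, 0.06 on TAM-3 and -0.95 on TAM-8. Of 20 fibroblast and stroma markers (30 listed), 1 rose, Igfbp4 at 2.20 (adjusted p = 0.0412, limma), and 16 were above 0, with a median of 0.80. Sparc was at 4.23 with an adjusted p of 0.123 (limma).

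With LPS on both sides the peritoneal macrophage median was -1.62 and the macrophage median -1.40, with 10 of 12 macrophage markers below 0. Of the peritoneal macrophage markers 1 fell, Fcna at -5.00 (adjusted p = 0.00754, limma), and 0 macrophage markers were called, with 6 at an unadjusted p under 0.05. Neutrophil, epithelial and mesothelial, and lymphocyte markers had medians of 0.82, -0.07 and -0.13 in untreated TAM over PEC, with 0 called in each (5, 2 and 0 at an unadjusted p under 0.05, limma). These shifts of whole marker lists stand beside the ratios of the 5 genes on the same arrays. Their part in those ratios was not tested.

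**Figure D5:**
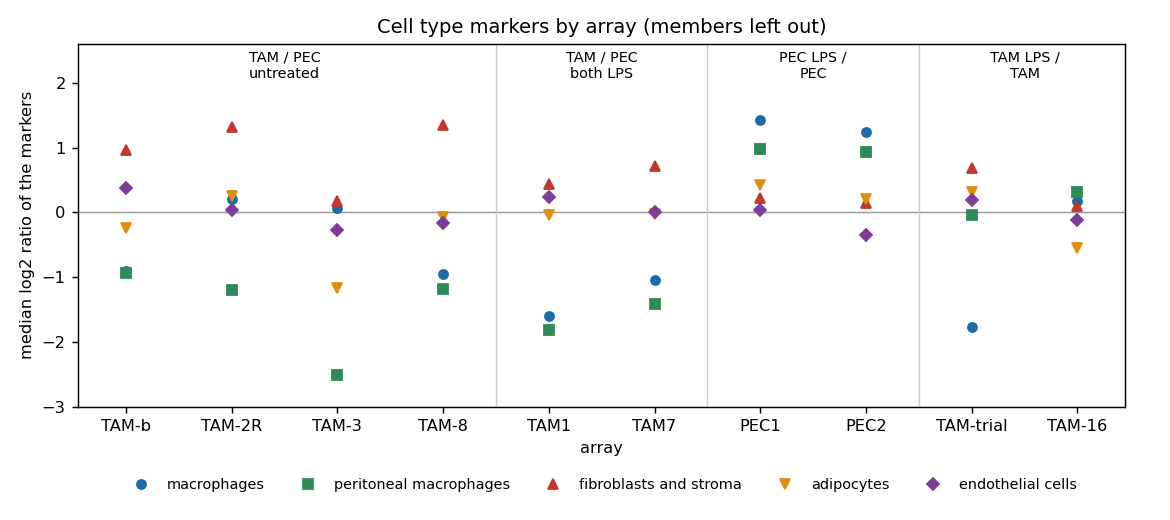
Median log2 ratio (vertical axis) of 5 marker lists on each of the 10 arrays (horizontal axis, grouped by comparison), with the 5 genes left out of the lists. Peritoneal macrophage medians lie below 0 on all 4 arrays of untreated TAM over PEC, from -2.51 to -0.93, and fibroblast and stroma medians above 0, from 0.18 to 1.35.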

How the data were processed

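For each feature and array, the authors deposited a single log ratio, read here as log2. Normalization, background correction, dyes and log base were not given in the sources used here. The largest value would be a ratio of 3297 in base 2 and of 119014 in base e, and a 16-bit channel ends at 65535. No intensities were used, so dim spots could not be filtered, and the number of arrays limits precision. Features with 1 symbol were averaged per gene (6795 named genes), and 483 features with several symbols and 1627 with none stayed single, which gave 8905 tested.

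TAM-2R and TAM1 were turned. limma 3.58.1 (R 4.3.3) fitted 4 mean ratios on all 10 arrays (6 residual degrees of freedom), with Benjamini-Hochberg adjustment at 0.05, and was tested on simulated data. Alternatives were other codings, centrings, scales, dye terms, models, prints, places and each array left out. The loop models take the PEC of all arrays as 1 population. The members, lists and tests were chosen with earlier results of these data known. A test of LPS-treated TAM against LPS-treated PEC had been planned and was dropped, since that comparison also entered the choice. Other lipid genes named are those past the threshold, else up to 4 per list with the largest mean and 1 sign; each member's 3 most similar genes and each marker list's extremes are named too.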

Additional observations from a re-analysis of the deposited data

Results flagged for a closer look

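The Lpl value of -2.31 on TAM-2R stood apart from the other 3 arrays of untreated TAM over PEC, whose values ran from -4.51 to -4.25. Its gap to the nearest array was 0.880 of the range, above Dixon's critical value for 4 samples. Chance flags about 1 in 20 groups, and 5 groups were examined. These values entered the choice of members, so the gap is a description and not a test. TAM-2R is a turned array. The Lpl mean without it was -4.36.

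Lpl, Fabp4 and Pltp were above 0 on both arrays of LPS in PEC and below 0 on both arrays of LPS in TAM. The difference of the responses was -1.73 for Lpl, -2.26 for Fabp4 and -2.16 for Pltp on the log2 scale. The test of that difference did not pass for any of them (adjusted p = 0.752, 0.726 and 0.719, limma).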

How the results depend on the processing

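Over 25 member values and their alternatives, 540 values were computed. Of these 233 equalled the reported value within 0.001, many of them by construction, since leaving out an array of another comparison cannot move a mean. Of the other 307, 21 changed sign and 19 with no test moved by more than the spread between arrays. The remaining 267 kept their sign, and 34 of them still differed by over 1.5 times. The 315 tested values stayed short of the threshold, with a lowest adjusted p of 0.147 (limma). The causes of the changes below were not tested. With TAM-2R and TAM1 left as deposited, untreated TAM over PEC gave -2.70 for Lpl, -0.97 for Fabp4, -1.60 for Fabp5, -1.38 for Pltp and -0.27 for Plpp3, and with LPS 0.81 for Lpl, -0.0640 for Fabp4, 0.24 for Fabp5, 0.12 for Pltp and 0.22 for Plpp3. On print v9p2 alone untreated Fabp4 was -1.63 and Plpp3 0.26; on v3p6 alone TAM with LPS gave 0.25 for Fabp5 and 0.38 for Plpp3. A fit of the 4 conditions as a loop took Fabp4 in PEC with LPS to 0.23 and the Lpl difference to -0.86, turned Lpl in PEC with LPS to -0.17, Fabp4 and Fabp5 in TAM with LPS to 0.26 and 0.22 and the Fabp4 difference to 0.0251, and gave -2.75, -3.95, -4.38 and -3.10 for Fabp4, Fabp5, Pltp and Plpp3 in TAM over PEC with LPS. With a dye term it gave -0.11 for Fabp4 in PEC, 0.29 for Fabp5 in TAM, 0.11 for the Fabp4 difference, and -2.79, -4.39 and -3.13 for Fabp4, Pltp and Plpp3 in TAM over PEC with LPS. Centred and scaled arrays gave 0.0795 for Fabp5 and 0.17 for Plpp3 in TAM with LPS, and -2.05, -4.56, -5.11 and -4.43 for Fabp4, Fabp5, Pltp and Plpp3 in TAM over PEC with LPS; centring alone gave 0.0508 for Plpp3 in TAM. A dye term for each print gave 0.11 for Fabp5 in TAM with LPS, and -2.03 for Fabp4 and -3.05 for Fabp5 in TAM over PEC with LPS. Removing the effect of place gave Pltp 0.0253 in TAM with LPS and -3.73 in TAM over PEC with LPS. Without 1 array, TAM with LPS ran from -0.50 to 0.25 for Fabp5 and from -0.48 to 0.38 for Plpp3, both signs turning without TAM-trial. Members called lower in untreated TAM over PEC numbered 4, and 2 to 3 without 1 array, 2 with scaled arrays, a dye term or the loop with a dye term, and 0 as deposited, on the comparison's own arrays, with a dye term per print or on v3p6 alone. With LPS they numbered 2, and 0 to 3 without 1 array, 1 with a dye term, 4 with scaled arrays, the loop or the loop with a dye term, and 0 as deposited, on own arrays, with a dye term per print or on v3p6. Over all genes, 41 were called in untreated TAM over PEC (0 to 49 over the alternatives), 1 in PEC with LPS (0 to 85), 0 in TAM with LPS (0 to 3), 6 in TAM over PEC with LPS (0 to 137) and 0 for the difference (0 to 47). Print as a random block (consensus correlation -0.0289) turned no member value. That single correlation over all genes does not show that print had no effect on a member. Features could not be tested singly, since each member has 1 feature. No paired analysis was possible because the groups compared share fewer than 2 replicate numbers.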
